A study of Arabidopsis thaliana with 6 samples.

Results

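The loci described here lie in the pericentromeric heterochromatin on one side of the centromere of Arabidopsis chromosome 3. They were chosen by locus number alone, as every identifier from AT3G29000 to AT3G41999 in the gene count table, which gave 453 of the 26764 genes counted. On the TAIR10.1 assembly 451 of them lay between chr3:11005638 and chr3:14172161, a stretch of 3.17 Mb, and the other 2 (AT3G29794 and AT3G36659) carried a number of the window but were annotated elsewhere on the chromosome. Of the 453 members, 310 were annotated as pseudogenes without a named parent gene, 109 as protein-coding, 31 as transcribed pseudogenes with a named parent and 3 as other RNA. The annotation has no class of its own for transposable element genes.

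RNA-seq compared wild-type (wt) plants with the triple mutant *3h1* (h1.1-1h1.2-2h1.3-2), which carries T-DNA insertion alleles of all 3 genes for linker histone H1. All plants were seedlings of the Col-0 background at the age of 3 weeks, and each genotype was represented by 3 libraries made from pooled seedlings. The paper states that the *h1.3* allele came from the Landsberg *erecta* (L*er*) accession. Despite backcrosses, some L*er* sequence remained in the mutant, mainly next to *H1.3*. Whether any of it lies among the members was not tested. The comparison asks which transcripts differ when H1 is absent. Levels are given in expected counts, for which a read that maps to several loci is divided between them, and in CPM, counts scaled to the size of the library after TMM normalization.

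H1 binds the linker DNA between nucleosomes and the nucleosome itself, and it contributes to the packing of chromatin. In Arabidopsis the regions around centromeres are the main home of transposable elements and of their decayed copies, and they are condensed into chromocenters, carry dense DNA methylation and histone H3 lysine 9 methylation, and are mostly silent. Genes that plants use every day are also found there, chiefly toward the chromosome arm, so that a window of this kind mixes silent repeats with housekeeping genes.

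The start regions of 3 members are shown because these had the smallest p values of the region in the comparison below. The first 2 are pseudogenes and the last is the orphan gene *QQS*. Each window runs from 250 bases before to 50 bases after the annotated start on TAIR10.1, and capitals mark a match to a promoter motif that was searched for on both strands.
AT3G33091, chr3:13820709-13821008, minus strand: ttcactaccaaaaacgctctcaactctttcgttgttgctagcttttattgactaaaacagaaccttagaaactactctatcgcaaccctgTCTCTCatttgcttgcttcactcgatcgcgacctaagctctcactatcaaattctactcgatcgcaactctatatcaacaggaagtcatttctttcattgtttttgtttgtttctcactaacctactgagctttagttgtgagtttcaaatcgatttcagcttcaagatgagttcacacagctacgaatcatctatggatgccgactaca
AT3G32360, chr3:13287491-13287790, minus strand: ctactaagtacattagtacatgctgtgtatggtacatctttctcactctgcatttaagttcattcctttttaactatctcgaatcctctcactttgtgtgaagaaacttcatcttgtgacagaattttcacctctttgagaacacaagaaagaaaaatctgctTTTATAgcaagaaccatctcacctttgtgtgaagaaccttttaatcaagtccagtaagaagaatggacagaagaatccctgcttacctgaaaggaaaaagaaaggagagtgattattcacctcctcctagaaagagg
AT3G30720 (QQS), chr3:12348797-12349096, plus strand: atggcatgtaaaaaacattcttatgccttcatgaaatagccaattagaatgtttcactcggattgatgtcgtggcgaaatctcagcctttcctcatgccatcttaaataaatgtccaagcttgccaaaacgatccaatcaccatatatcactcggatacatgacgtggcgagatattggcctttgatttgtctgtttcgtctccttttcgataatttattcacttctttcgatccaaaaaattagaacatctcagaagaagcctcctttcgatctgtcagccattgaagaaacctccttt
The capitals in AT3G33091 are the GA repeat (GAGAGA) read on the other strand, beginning 160 bases before the start. Those in AT3G32360 are the TATA box (TATAAA) read on the other strand, beginning 87 bases before the start. The window of *QQS* held none of the 5 motifs.

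Many members have near copies elsewhere, which decides how their reads could be counted. A match of at least 90% identity over at least 200 bases was found elsewhere in the genome for 236 of the 310 pseudogenes without a named parent (76.1%), with up to 294 matches for a locus. Such a match was found for 28 of the 109 protein-coding members (25.7%) and for 17 of the 31 transcribed pseudogenes. An example is a stretch of AT3G33091 next to the matching stretch at its relative AT3G32210, another member. Capitals mark the 6 bases of 120 that differ. The stretch at AT3G32210 begins outside that locus, whose annotated border is at chr3:13191327.
AT3G33091, chr3:13820639-13820758, minus strand: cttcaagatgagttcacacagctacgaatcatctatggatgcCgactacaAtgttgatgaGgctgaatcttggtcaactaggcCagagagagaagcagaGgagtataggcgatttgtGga
AT3G32210, chr3:13191242-13191361, minus strand: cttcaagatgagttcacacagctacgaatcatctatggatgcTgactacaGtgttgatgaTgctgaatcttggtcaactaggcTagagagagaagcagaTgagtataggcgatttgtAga
A second kind of copy comes from the chloroplast. Of the members, 5 held stretches of the chloroplast genome, and the 120 bases shown of AT3G33000 differed from chloroplast *atpI*, which encodes a subunit of the ATP synthase, at the 3 bases in capitals.
AT3G33000, chr3:13537732-13537851, minus strand: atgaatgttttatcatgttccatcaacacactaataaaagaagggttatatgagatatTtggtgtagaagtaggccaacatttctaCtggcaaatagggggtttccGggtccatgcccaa
chloroplast atpI, bases 14651 to 14770 of the chloroplast genome, minus strand: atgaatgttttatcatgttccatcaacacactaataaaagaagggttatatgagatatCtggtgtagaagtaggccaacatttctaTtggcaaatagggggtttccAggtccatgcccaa

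The total count was between 4753812 and 6174881 per library, of which chloroplast genes took 55.5 to 60.01% in wt and 52.2 to 54.5% in *3h1*. Nuclear genes had on average 1.204 times as many counts in *3h1* as in wt, which CPM and fold changes take into account and the counts given below do not. The median count of a tested member was 13.6 to 16.1 in the wt libraries and 15.1 to 36.6 in the *3h1* libraries. The share of members with a fractional count, a sign of divided reads, reached 31.1, 20.3 and 23.8% in the 3 wt libraries, in the order of their replicate numbers, and 48.6, 26.9 and 59.2% in the *3h1* libraries in the same order, which is kept below. *3h1* replicates 1 and 3 thus stood apart from the other 4 libraries. The medians and counts of the main groups of members below are therefore also given with both of them left out, a fit in which the lone *3h1* library is assumed to vary like the wt libraries. These 2 libraries also held the highest shares of nuclear counts on the members, and the library kept held the lowest. Lower medians in this fit are therefore not a separate result. The low-count filter was also run anew in every fit that left out libraries, so the tested genes changed. In the fit with a lone *3h1* library, 1 library of either genotype was enough to pass it. The part of the filter in the shifted medians was not tested. *H1.1* fell from 416, 414 and 349 counts in wt to 84, 104 and 120 in *3h1*, and *H1.2* fell by 2.58 on the log2 scale (adjusted p = 4.05e-05, edgeR). *H1.3* was not analysed here. All 3 leaf markers were well counted in every library, with a summed level of 7126 to 7968 CPM in wt and 5675 to 6485 CPM in *3h1*, and root markers summed to 153 to 212 and 170 to 235 CPM. Flower markers (*AP3*, *PI* and *SEP3*) summed to 1.83 to 2.74 CPM in wt and to 8.07, 4.48 and 7.36 CPM in *3h1*. Of 3 seed markers, the 2 in the table summed to 0.328, 1.496 and 1.31 CPM in wt and to 2.63, 0 and 3.71 CPM in *3h1*, and so were highest in *3h1* replicates 1 and 3 and at 0 in replicate 2. The part of these differences in the results below was not tested.

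All members together took 0.306, 0.320 and 0.300% of the nuclear counts in wt, and 0.361, 0.275 and 0.431% in *3h1*. The wt libraries lay close together, whereas *3h1* replicate 2 was the lowest and *3h1* replicates 1 and 3 were the highest of the 6, so the genotypes overlapped. The means were 0.309% ± 0.010 in wt and 0.356% ± 0.078 in *3h1* (SD, n = 3 each). Wilson 95% intervals for single libraries, which cover counting error only, reached from 0.293 to 0.329% in wt and from 0.268 to 0.439% in *3h1*.

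Pseudogenes accounted for the difference between the *3h1* libraries. Protein-coding members held 0.149, 0.140 and 0.158% of the nuclear counts in wt and 0.143, 0.142 and 0.144% in *3h1*, without a library that stood apart. Pseudogenes without a named parent held 0.130, 0.148 and 0.114% in wt and 0.191, 0.108 and 0.252% in *3h1*. The *3h1* values again lay on both sides of the wt range. A large part of these shares fell on AT3G33225, AT3G31945 and AT3G29820. Without these 3 loci the shares were 0.0726, 0.0718 and 0.0627% in wt and 0.115, 0.0623 and 0.170% in *3h1*. Pseudogenes of this class outside the window moved in the same libraries, at 0.915, 0.946 and 0.759% in wt and 1.11, 0.804 and 1.41% in *3h1*. In bulk seedlings, a change in the share of cells that hold a transcript and a change in the amount per cell cannot be told apart.

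**Figure D1:**
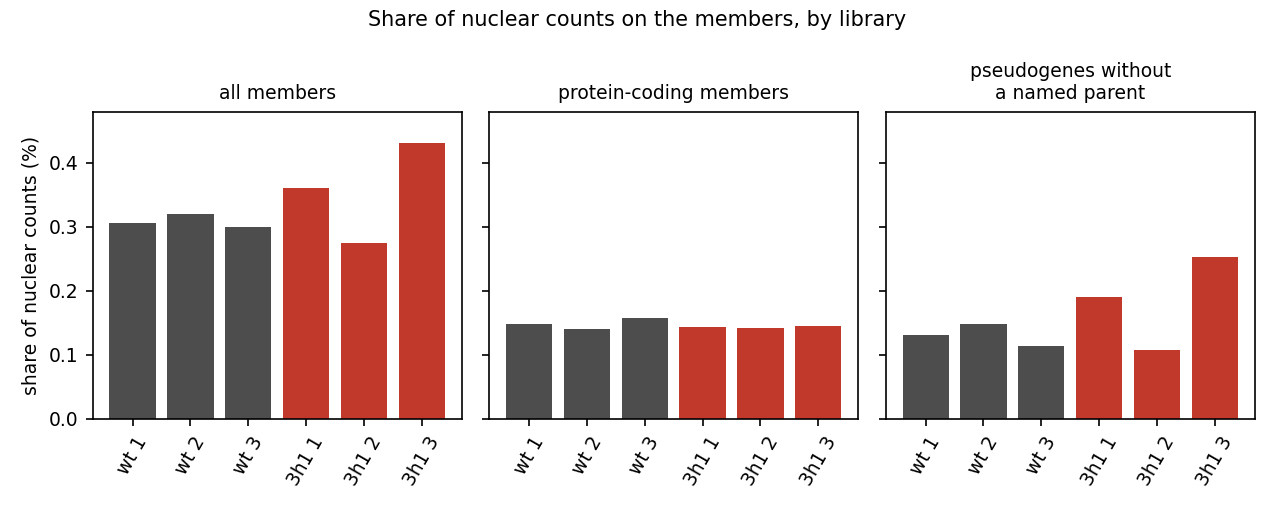
Share of nuclear counts (%) on all members, on protein-coding members and on pseudogenes without a named parent, with 1 bar per library (grey wt, red *3h1*). Protein-coding members stayed between 0.140 and 0.158% in all 6 libraries, while pseudogenes reached 0.191 and 0.252% in *3h1* replicates 1 and 3 and 0.108% in replicate 2.

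Of the 453 members, 117 had enough counts to be tested with edgeR in a fit over 17453 genes, comprising 63 pseudogenes without a named parent, 46 protein-coding genes, 7 transcribed pseudogenes and 1 tRNA gene. At the study's threshold, an unadjusted p value under 0.05 with a fold change over 2, 18 tested members were higher in *3h1* (15.4%), against 2.63% of all tested genes, and 1 was lower, against 0.435%. Of the 18, only 2 reached the low-count filter's 1.74 CPM in all wt libraries. The others needed a *3h1* library, where they were high, to be tested at all, so the 15.4% depends on the filter. At p under 0.05 alone 21 were higher and 4 lower, where 5.33 and 4.17% of all tested genes were. After Benjamini-Hochberg adjustment over all genes, 1 member passed an adjusted p of 0.05 (AT3G33091), against 0.0401% of all tested genes. Every *3h1* library lay above every wt library for 18 members, the background being 7.6%, and below for 5, the background being 7.53%. The count of 18 higher members depended on single libraries, as did the share over all genes. Without *3h1* replicate 2 it was 58 of 169 tested members, against 6.66% of all tested genes, and without *3h1* replicate 3 it was 9 of 115, against 1.55%. With *3h1* replicates 1 and 3 both left out, 3 of 124 were higher, against 0.878% of all tested genes, and 6 were lower, against 1.39%.

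The median log2 fold change of the tested members was 0.29, with 75 of 117 above 0, against a median of 0.01 over all tested genes. It was 0.62 without wt replicate 2, 0.48 without wt replicate 3, 0.73 without *3h1* replicate 2 and -0.025 without *3h1* replicate 3. With *3h1* replicates 1 and 3 both left out, it was -0.29. Part of the tested members entered through their *3h1* level, because 30 reached the filter's 1.74 CPM in all *3h1* libraries but not in all wt libraries. Another 32 reached it in all libraries of neither genotype, and so also needed a *3h1* library to pass. Among the 55 that reached it in all wt libraries, 24 were above 0, 2 were higher and 1 was lower at the study's threshold, and the median was -0.05. The same class over all genes held 14068 genes, with a median of -0.03 and 0.846% higher.

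The tested members differed by class. Pseudogenes without a named parent had a median log2 fold change of 0.68, with 51 of 63 above 0, and 14 of them were higher and none lower at the study's threshold (22.2%). The limit given above, that members could pass the filter through their *3h1* level, holds for these values too. This median was 1.16 without *3h1* replicate 2, 0.29 without *3h1* replicate 3 and -0.33 with *3h1* replicates 1 and 3 both left out, where 3 of 63 were higher and 4 lower. Pseudogenes of this class outside the window had a median of 0.50, with 339 of 421 above 0, and 14.3% of them were higher. Their median was -0.27 with *3h1* replicates 1 and 3 left out, where 1.78% were higher and 5.57% lower. Protein-coding members had a median of -0.06, with 20 of 46 above 0, 3 higher (6.52%) and 1 lower (2.17%), against 2.2% higher and 0.372% lower of the protein-coding nuclear genes outside the window. With *3h1* replicates 1 and 3 left out, the median of the protein-coding members was -0.12, against -0.0086 for protein-coding nuclear genes outside the window. Of the tested members, 71 were in the lowest tercile of all tested genes by level (up to 4.54 CPM), where 5.76% of all genes were higher. The 43 tested pseudogenes with a near-identical match had a median of 0.68 and the 20 without one a median of 0.69, which became -0.35 and -0.33 with *3h1* replicates 1 and 3 left out.

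**Figure D2:**
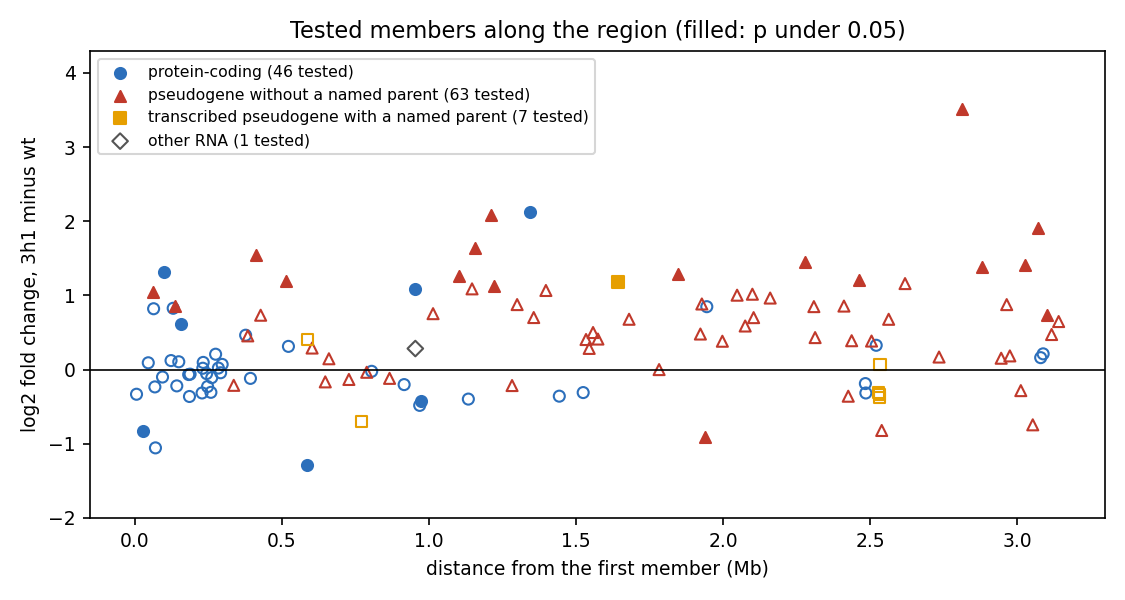
Log2 fold change (*3h1* minus wt) of the 117 tested members against their distance from the first member (Mb), by annotation class, with filled symbols for p under 0.05. Protein-coding genes crowd the first Mb near 0, and pseudogenes, most of them above 0, fill the remainder.

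In each *3h1* library, the median pseudogene inside the window and the median one outside it lay on the same side of 0. These are class medians, and single members, such as AT3G31945 below, could go another way. Relative to the wt mean of each gene (log2, with 0.5 CPM added), the median member pseudogene stood at -0.07, 0.17 and -0.13 in wt and at 0.57, -0.22 and 0.97 in *3h1*. Pseudogenes outside the window were at 0.46, -0.16 and 0.86 in the *3h1* libraries, and the lowest tercile of genes at 0.19, 0.01 and 0.32. Protein-coding members stayed at -0.01, -0.06 and -0.02. The same 2 *3h1* libraries had the highest shares of fractional counts and the highest sums of the flower and seed markers, and the part of these in the result was not tested.

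**Figure D3:**
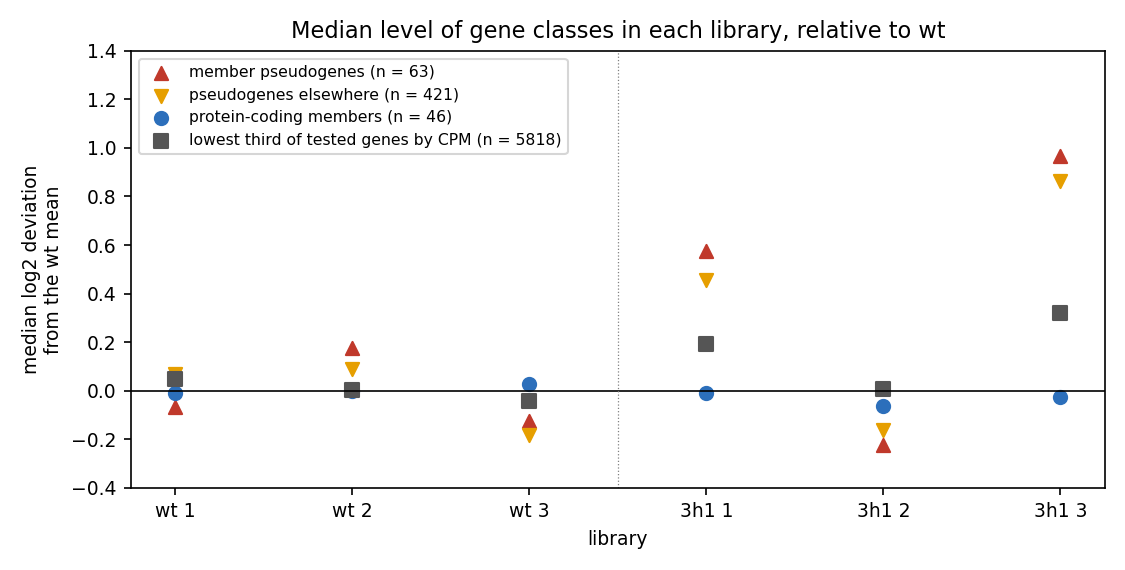
Median log2 deviation from the wt mean in each library, for member pseudogenes (63), pseudogenes elsewhere (421), protein-coding members (46) and the lowest tercile of tested genes by CPM (5818). Both pseudogene classes were above 0.4 in *3h1* replicates 1 and 3 and below 0 in replicate 2, and protein-coding members stayed near 0.

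Position in the region went with class. In the first Mb, the side of the chromosome arm, 49.7% of the 151 members were protein-coding and the 52 tested members had a median log2 fold change of -0.03. Between 1 and 2 Mb, 10.4% of the members were protein-coding and the median of the 27 tested members was 0.70. It was 0.41 for 22 tested members between 2 and 2.6 Mb and 0.56 for 16 between 2.6 and 3.2 Mb, where 5% of the members were protein-coding. All 4 medians were below 0 with *3h1* replicates 1 and 3 left out, at -0.20, -0.33, -0.33 and -0.13 from the arm inward.

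Locus windows around the other centromeres gave smaller medians, but they were not matched to the members by level or class. The median tested gene stood at 3.4 CPM among the members and at 5.3 CPM on the other side of the chromosome 3 centromere. In the windows of chromosomes 1, 2, 4 and 5 it stood at 5.2, 27.0, 5.4 and 5.0 CPM. The tested genes on the other side of the chromosome 3 centromere (AT3G42000 to AT3G45999) had a median log2 fold change of 0.19 over 192 genes, with 6.77% higher at the study's threshold. The windows of chromosomes 1, 2, 4 and 5 had medians of 0.06, -0.05, 0.09 and 0.11, with 4.17, 6.38, 6.59 and 5.58% higher. The quartiles of every window overlapped those of the members, and the difference between windows was not tested. With *3h1* replicates 1 and 3 left out, the median of the members was -0.29, below the -0.030 of the other side of the centromere. The windows of chromosomes 1, 2, 4 and 5 were then at -0.056, 0.046, -0.11 and -0.085. That fit keeps the *3h1* library with the lowest share of counts on the members, so the turned order is not a separate result.

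**Figure D4:**
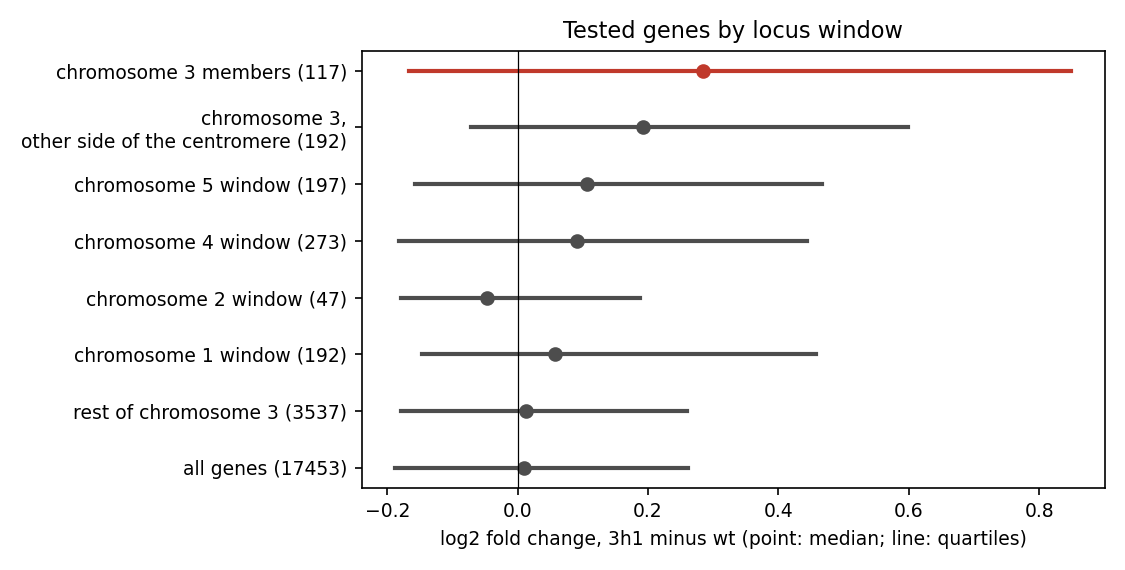
Median (point) and quartiles (line) of the log2 fold change of tested genes in each locus window, with the number tested in brackets. The chromosome 3 members lie furthest to the right, with a median of 0.29 and an upper quartile of 0.85, and their line overlaps those of all the other windows. The windows were not matched by level or class. With *3h1* replicates 1 and 3 left out, which keeps the *3h1* library lowest for the members, the members are at -0.29.

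AT3G33091 was the one member to pass the adjusted threshold. This pseudogene of unknown function lies at chr3:13818738-13820758 on the minus strand and had 3, 3 and 2 counts in wt and 34, 37 and 47 in *3h1*. All 6 values were whole, and every *3h1* library, replicate 2 included, was far above every wt library. The mean level was 0.549 ± 0.178 CPM for wt and 6.34 ± 1.1 CPM for *3h1* (SD, n = 3 each). Its wt level was under the filter's 1.74 CPM, so it was tested only because of its *3h1* level. On summed counts scaled to library size the ratio was 11.8, with a 95% exact interval of 5.81 to 28 for counting error. The quasi-likelihood test of edgeR gave a log2 fold change of 3.51 (SE 0.41) and an adjusted p of 0.0122. This fold change stayed between 3.32 and 3.73 under the alternatives that tested it, but the adjusted p was 0.115 without wt replicate 1, 0.0775 without wt replicate 3 and 0.0523 without *3h1* replicate 3. It was 0.143 with limma voom, 0.147 with the replicate number as a block and 0.2197 with *3h1* replicates 1 and 3 left out.

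The relatives of AT3G33091 were nearly silent. Alignments of at least 1000 bases linked it to 17 other annotated loci at 85.3 to 93.7% identity, 11 of which were in the count table and none of which passed the filter. Together those 11 had 16.3, 10 and 8 counts in wt and 50.001, 21 and 80.7 in *3h1*, the largest single count being 20.1. AT3G32210, whose sequence is shown beside that of AT3G33091, had 0, 0 and 1 counts in wt and 7, 2 and 3.42 in *3h1*. These sums were again highest in *3h1* replicates 1 and 3, unlike those of AT3G33091, which was as high in replicate 2.

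AT3G32360, a pseudogene without a near-identical copy at chr3:13282356-13287540, had 14 counts in each wt library and 48.1, 31 and 68.8 in *3h1*. The groups did not overlap, and its mean level was 2.88 ± 0.596 CPM for wt and 7.75 ± 2.31 CPM for *3h1* (SD, n = 3 each). The log2 fold change was 1.46 (SE 0.31, adjusted p = 0.217, edgeR). The unadjusted p value stayed under 0.05 in all 16 alternatives.

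*QQS* (AT3G30720, chr3:12349047-12349933) is an orphan gene found only in Arabidopsis thaliana that affects how leaves divide carbon between starch and protein, and its transcription is known to vary with DNA methylation of repeats at its start. It had 1, 5 and 2 counts in wt and 20.9, 13 and 12 in *3h1*, so every *3h1* library was above every wt library, at low depth. *QQS* too was under the filter's 1.74 CPM in wt and was tested only because of its *3h1* level. The ratio of summed counts was 4.61 (95% exact interval 2.15 to 11.3), and the log2 fold change was 2.12 (SE 0.61, adjusted p = 0.327, edgeR).

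Among the other pseudogenes, AT3G30570 had whole counts of 8, 4 and 10 in wt and 41, 11 and 36 in *3h1* (log2 fold change 1.63), with replicate 2 just above the wt range. Without *3h1* replicates 1 and 3 the log2 fold change was 0.49 and p was over 0.05. AT3G33225 had the highest CPM of the members in *3h1* and was below *PHS1* and AT3G31945 in wt, with 612, 463 and 593 counts in wt and 1734, 700 and 1123 in *3h1*. Its groups did not overlap and its log2 fold change was 0.73 (adjusted p = 0.332, edgeR), and all 6 counts were fractional. The log2 fold change was 0.41 without *3h1* replicate 1, and 0.23 with p over 0.05 without *3h1* replicates 1 and 3. Per kilobase of exon it was at 39.4 CPM in wt and 65.4 CPM in *3h1*, near the level of *PHS1*.

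The opposite direction was seen in AT3G31945, a pseudogene with 36 near-identical matches. It stood at 104, 171 and 80.6 CPM in wt and 35.8, 38.9 and 113 CPM in *3h1*, so that *3h1* replicate 3 was within the wt range and the other 2 were below. Its log2 fold change was -0.91 (adjusted p = 0.514, edgeR), -1.66 without *3h1* replicate 3, -0.58 without wt replicate 2, -0.63 without *3h1* replicate 1 and -0.69 without *3h1* replicate 2, and the last 3 of these took the unadjusted p value over 0.05. It was -1.60 with *3h1* replicates 1 and 3 left out. AT3G29820, also among the 5 members with the highest level, had 244, 250 and 124 counts in wt and 213, 125 and 401 in *3h1*, with overlapping groups.

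The 18 members higher at the study's threshold were mostly rare transcripts, with mean wt levels from 0.453 to 3.03 CPM. For 12 of them the mean wt level was under 1.74 CPM. *3h1* replicates 1 and 3 were above the highest wt library for all 18, and replicate 2 for 12. The highest library was *3h1* replicate 3 for 12, replicate 1 for 5 and replicate 2 for 1. A fractional count in at least 1 library was found for 16 of them, and a near-identical match for 10. Beside those described above they were AT3G33537, AT3G33193, AT3G30668, AT3G29615, AT3G30680, AT3G30465, AT3G33115, AT3G29650, AT3G29078, AT3G31630 and AT3G32914, all pseudogenes, the protein-coding AT3G29140 and *UMAMIT32*, and AT3G30875, a transcribed pseudogene of an ABC transporter, with log2 fold changes from 1.05 to 2.09. Of these, AT3G29650 kept p under 0.05 in only 3 of the 13 alternatives that tested it, and in 0 of the 5 that left out 1 library. The pseudogene AT3G29175 was at p under 0.05 with a fold change under 2 (log2 fold change 0.85).

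AT3G30668, a locus with 150 near-identical matches, showed the largest difference of these, with 6.62, 0 and 1.35 counts in wt and 14.8, 15.1 and 11.6 in *3h1*, and p was over 0.05 without wt replicate 3. AT3G33537 had 1.42, 4.61 and 8 counts in wt and 32.004, 9.71 and 28.2 in *3h1*, with replicate 2 slightly above the wt range. In AT3G31630 the groups overlapped, with 14.4, 8 and 5 counts in wt and 28, 7 and 50.2 in *3h1*. Its p value was over 0.05 without wt replicate 2, wt replicate 3, *3h1* replicate 1 or *3h1* replicate 3. With *3h1* replicates 1 and 3 both left out its log2 fold change was -0.43, and that of AT3G30680 was -0.06.

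Of the 25 members with p under 0.05, 2 (AT3G33091 and AT3G32360) kept p under 0.05 in every alternative that tested them, and 6 kept it whichever library was left out, these 2 with *QQS*, AT3G30570, AT3G33225 and AT3G33537. The number that lost it was 9, 8 and 13 without wt replicate 1, 2 or 3, and 8, 4 and 10 without *3h1* replicate 1, 2 or 3. With *3h1* replicates 1 and 3 both left out, 23 of the 25 were tested and 5 had p under 0.05, which were AT3G33091, AT3G32360, AT3G30668, *CM1* and AT3G31945. The members nearest to the threshold on its far side were AT3G32195, AT3G32115, AT3G33000, AT3G33066 and AT3G33002, with log2 fold changes of 0.96, 0.70, -0.38, 1.16 and -0.33.

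Protein-coding members with p under 0.05 included enzymes, transporters and a transcription factor. *CM1* (AT3G29200) encodes a plastid chorismate mutase, which directs chorismate toward phenylalanine and tyrosine. It had 34, 26.1 and 25 counts in wt and 56, 54 and 52 in *3h1*, with no overlap, and a log2 fold change of 0.61 (adjusted p = 0.413, edgeR). The unadjusted p value was over 0.05 without wt replicate 1, wt replicate 3 or *3h1* replicate 2.

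*NAC3* (AT3G29035), a NAC-domain transcription factor that promotes leaf senescence, was the clearest in the lower direction. It had 31, 28 and 26 counts in wt and 22, 21 and 16.6 in *3h1*, without overlap, and a mean level of 5.78 ± 1.04 CPM for wt and 3.23 ± 0.723 CPM for *3h1* (SD, n = 3 each). Its log2 fold change was -0.83 (SE 0.30, adjusted p = 0.402, edgeR). The unadjusted p value was over 0.05 without wt replicate 2 or *3h1* replicate 3.

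*UMAMIT32* (AT3G30340), of a family that includes amino acid exporters, had 5, 6 and 4 counts in wt and 18, 11 and 12.2 in *3h1*, with no overlap. Its p stayed under 0.05 in only 6 of the 15 alternatives that tested it. It was over 0.05 without wt replicate 1, wt replicate 3, *3h1* replicate 1 or *3h1* replicate 2, among others. AT3G30390, of the transmembrane amino acid transporter family, had 350, 186 and 354 counts in wt and 248, 251 and 315 in *3h1*, with overlapping counts and a log2 fold change of -0.43, and p was over 0.05 without wt replicate 1, wt replicate 3 or *3h1* replicate 1. It overlaps AT3G30380, an alpha/beta-hydrolase gene, so reads of the pair may not be separable. AT3G29140, an uncharacterized protein, had 5, 11 and 9 counts in wt and 24, 21 and 35.9 in *3h1*, without overlap, and p was over 0.05 without wt replicate 1.

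AT3G29760, a haloacid dehalogenase-like hydrolase, was the one member lower at the study's threshold. It had 64, 44 and 225 counts in wt and 66.8, 64 and 38 in *3h1*, so that wt replicate 3 alone was far above the rest. The log2 fold change of -1.29 became -0.24 without wt replicate 3 and -1.03 without *3h1* replicate 3, both with an unadjusted p value over 0.05.

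**Figure D5:**
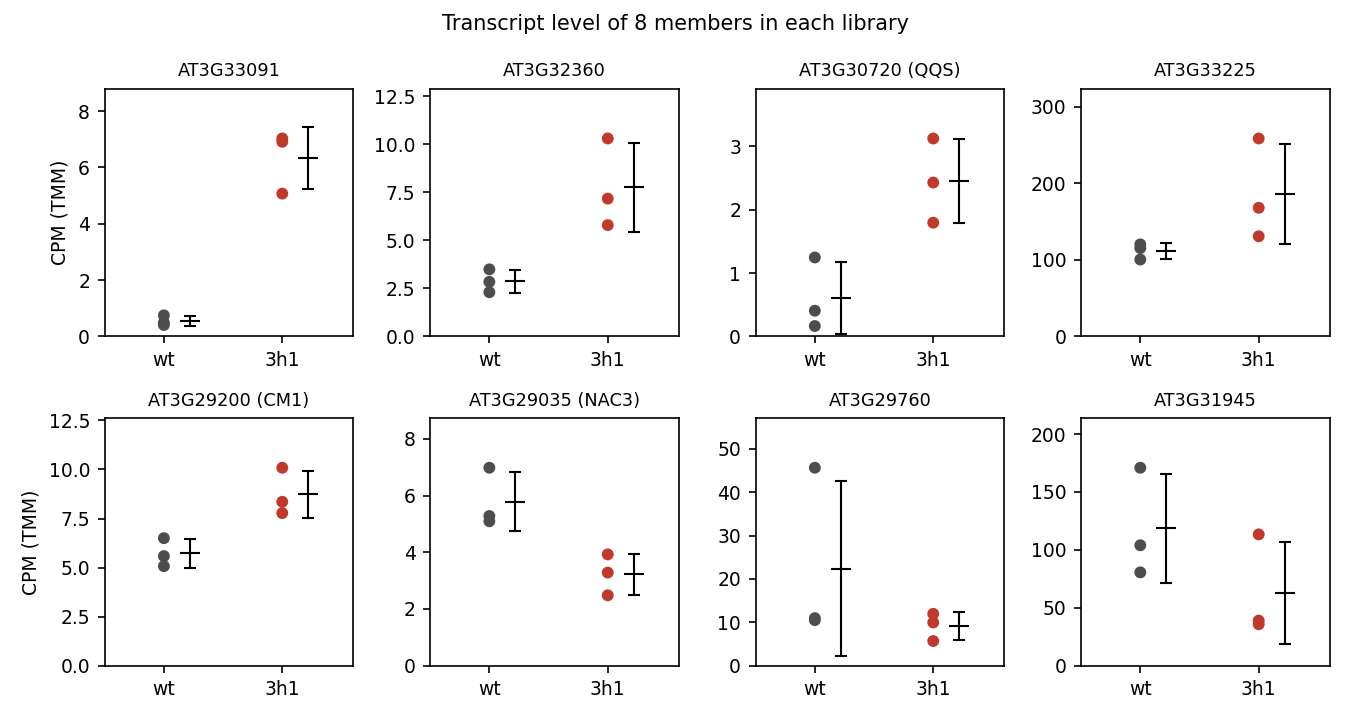
TMM-normalized CPM of 8 members in each library (points, grey wt and red *3h1*), with the mean and SD of 3 libraries beside them, each panel on its own axis from 0. AT3G33091, AT3G32360, *QQS*, AT3G33225, *CM1* and *NAC3* show no overlap between the genotypes, AT3G29760 shows wt replicate 3 far above the rest, and AT3G31945 overlaps.

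Of the 25 members of the lists of known genes that were in the table, 19 were tested, of which 2 (*CM1* and *QQS*) were higher and none lower at p under 0.05, where 5.33 and 4.17% of all tested genes were. In primary metabolism, *PHS1*, the plastid alpha-glucan phosphorylase of starch turnover, had 962, 648 and 797 counts in wt and 916, 789 and 846 in *3h1*. At 160.4 ± 2.11 CPM for wt and 137 ± 10.4 CPM for *3h1* (SD, n = 3 each) its groups did not overlap after scaling. Its log2 fold change was -0.23 (adjusted p = 0.634, edgeR). *ERD5*, the proline dehydrogenase that begins proline breakdown, was at -0.36 and *UGD2*, which makes UDP-glucuronic acid for the cell wall, at -0.11.

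In signalling, the log2 fold change was 0.12 for *KIN11*, a catalytic subunit of the energy-sensing SnRK1 kinase, and -0.31 for *AHP2*, a phosphotransmitter of the cytokinin pathway. It was 0.46 for *AFP3*, a regulator of abscisic acid responses, and -0.02 for *BR6OX2*, which completes brassinosteroid synthesis. None of the 4 passed p under 0.05.

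Among genes of transcription, chromatin and RNA, *ARP6* encodes a subunit of the SWR1 complex, which deposits the histone variant H2A.Z. It had 22, 20 and 20 counts in wt and 41.5, 24 and 25 in *3h1*, a log2 fold change of 0.21 (adjusted p = 0.860, edgeR). The transcription factor gene *bZIP42* was at -0.40 and *RIK*, an RNA-binding KH protein gene, at 0.02.

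For the cell wall and vesicle traffic, the log2 fold changes were -0.33 for the expansin gene *EXPA5*, -0.23 for the pectin methylesterase gene *PME31*, -0.04 for the exocyst subunit gene *EXO70E1* and 0.33 for the peroxidase gene AT3G32980. *VTI13*, a vesicle SNARE gene, was at -1.06 with a standard error of 0.60, with 15, 14 and 7 counts in wt and 5, 2 and 15.2 in *3h1*. It was at -2.03 without *3h1* replicate 3 and at -2.62 without *3h1* replicates 1 and 3, both with p under 0.05. In specialised metabolism the anthocyanin malonyltransferase gene *AT5MAT* was at -0.12 and the terpene synthase gene AT3G29410 at 0.07. The other 6 listed genes, among them *COBL2*, *CYP702A8* and *ABCG38*, had too few counts to be tested, at most 18.1 in a library.

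The chloroplast-like members were among the better counted transcripts. AT3G33000 matched *atpI* with 95.2% identity over 779 bases and had 152, 132 and 134 counts in wt and 122, 111 and 176 in *3h1*, which after scaling averaged 28.4 CPM for wt and 21.8 CPM for *3h1* (log2 fold change -0.38). AT3G33002, with 96.3% identity to *rps2* for a ribosomal protein, was at -0.33. AT3G32990, which matched *atpH* over 288 of its 2529 bases, was at -0.31, and AT3G33004, with 93.5% identity to *rpoC2* for a subunit of the plastid RNA polymerase, was at 0.07. Chloroplast genes took a mean of 58.4% ± 2.54 of all counts in wt and 53.3% ± 1.15 in *3h1* (SD, n = 3 each), and the part of chloroplast reads in the levels of these loci was not tested.

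The 336 members under the filter had few reads, with a highest count of 48.3 and medians of 6.01 counts summed over the wt libraries and 13.9 over the *3h1* libraries. Their levels summed to 179, 171 and 145 CPM in wt and 301, 143 and 421 CPM in *3h1*, again highest in *3h1* replicates 1 and 3 and lowest in replicate 2. At least a trace of reads was found for 282, 248 and 256 of them in wt and for 322, 265 and 327 in *3h1*. The most abundant of them in *3h1* were the pseudogenes AT3G32164, AT3G30145, AT3G29156, AT3G33178 and AT3G29205. AT3G32164 had 6.86, 7 and 4.21 counts in wt and 15.6, 8.33 and 48.3 in *3h1*, and AT3G30145 had 9, 6 and 3.98 in wt and 39.6, 7.83 and 19.2 in *3h1*. In both, replicate 2 was close to the wt libraries. AT3G29790 had no count in any library.

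Members with whole counts in all libraries, to which no read was visibly divided, numbered 85, of which 17 were tested. Their median log2 fold change was -0.02, and 2 were higher (AT3G33091 and AT3G30570), or 11.8%, against 2.63% of all tested genes. The 100 tested members with a fractional count had a median of 0.39 and 16 higher (16%), a share near that of the whole-count members. The groups were formed from the counts themselves, *3h1* libraries included, and were not matched by class or level. The medians of the whole-count and fractional members were -0.022 and -0.32 with *3h1* replicates 1 and 3 left out.

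The start windows of the members were also compared with those of all 26511 counted nuclear genes for motifs on either strand. Each window is set by the annotated border of the locus. Transcription starts were not mapped, so a window need not hold a promoter, least of all for pseudogenes. The TATA box (TATAAA) was found in 36.4% of the member windows, in 52.3% of those of protein-coding members and in 30.6% of those of pseudogenes without a named parent, against 49.6% of all. The site II element (TGGGCC), common before genes of growth and protein synthesis, was in 5.74% of member windows against 15.5% of all. The G-box (CACGTG) was in 3.97% against 7.45%, the telo-box (AAACCCTA) in 5.52% against 6.30% and the GA repeat (GAGAGA) in 24.7% against 28.9%. Of the 18 members higher at the study's threshold, 5 held the TATA box and 4 the GA repeat, and none held the telo-box or the site II element.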

How the data were processed

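Total RNA of wt and *3h1* seedlings was depleted of ribosomal RNA by the authors and sequenced on an Ion Proton instrument. They removed ribosomal and spike-in reads, aligned the remainder to TAIR10 and quantified ARAPORT11 genes in Partek Flow. The authors deposited expected counts that were not normalized, with multi-mapping reads divided between loci by expectation maximization, and the use of strand is not given in the sources used here. A deposited table of the authors' own ratios, p values and FDR was not used. All 6 sample columns were used and 0 were left out.

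Expected counts were rounded, filtered with filterByExpr (count minimum 10), normalized by TMM and tested in R 4.3.3 with edgeR 4.0.16 (quasi-likelihood), with genotype alone in the model and Benjamini-Hochberg adjustment over 17453 genes. The standard error is the log2 fold change divided by the square root of the F statistic. Alternatives were RLE and upper-quartile factors, DESeq2 1.42.0, limma voom 3.58.1, other filters, unrounded counts, removal of organelle genes, a replicate block, each library left out, *3h1* replicates 1 and 3 left out, and a wider window. The replicates are pools of seedlings, and p values measure the spread between these 3 libraries of each genotype. An exact two-sided permutation test of 3 against 3 libraries cannot give a p under 0.1.

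The count table has no coordinates. Positions, classes and sequences are from the RefSeq annotation of TAIR10.1, in which all 453 members were found by locus tag. Near-identical matches were found with blastn 2.17.0 between each whole locus and the genome. Counts were called whole within 1e-06. CPM per kilobase used the annotated exon length. Tables and figures were made with Python 3.11.15, pandas 2.3.3, numpy 2.4.6, scipy 1.17.1, pysam 0.24.0 and matplotlib 3.10.9.

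The members, gene lists and tests were chosen with earlier results of these data known. Named are all members with p under 0.05, the 5 nearest on its far side, all tested members of the lists of known genes, the 5 with the highest mean CPM and the 5 under the filter with the most *3h1* counts. Other members named as examples were chosen after their values were seen.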

Additional observations from a re-analysis of the deposited data

How the results depend on the processing

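The counts of members are given in the order higher and lower at p under 0.05 with a fold change over 2, adjusted p under 0.05, and higher and lower at p under 0.05, which were 18, 1, 1, 21 and 4. With RLE or upper-quartile factors, unrounded counts or no organelle genes, each stayed within 1.5 times, and the median of protein-coding members moved to -0.029 with upper-quartile factors. DESeq2 gave 0 lower at the study's threshold and 1 lower at p under 0.05. limma voom gave 11 of 117 tested members higher, against 2.01% of all tested genes, and 0 with an adjusted p under 0.05, where AT3G33091 had 0.143. Without a low-count filter, 51 of 452 tested members were higher, against 4.33% of all tested genes, and 2 were lower. At p under 0.05 there were 57 higher. The medians were 0.66 for all members and 0.15 for protein-coding members, a reversal. With at least 10 counts in every library, 2 of 53 tested members were higher, against 0.922% of all tested genes. There 0 passed the adjustment and 5 were higher at p under 0.05, with medians of -0.030 for all members and 0.32 for pseudogenes. AT3G33091 was not tested there. With *3h1* replicates 1 and 3 left out, the counts were 3, 6, 0, 4 and 8, with medians of -0.29 for all members, -0.33 for pseudogenes, both reversed, and -0.12 for protein-coding members. The causes of these shifts were not tested, beside the smaller number of genes or libraries.

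Leaving out 1 library gave 9 to 58 higher, 1 to 3 lower, 0 to 1 adjusted, 11 to 62 and 2 to 7 at p under 0.05, and medians of -0.025 to 0.73 for all members, 0.29 to 1.16 for pseudogenes and -0.10 to -0.014 for protein-coding members. In these fits 115 to 169 members were tested, and 1.55 to 6.66% of all tested genes were higher at the study's threshold. The window extended to AT3G45999 gave 31, 4, 43 and 9 of 309 tested genes for the counts without adjustment. Over all tested genes 2.63% were higher at the study's threshold. The share of nuclear counts was 1.03% in wt and 1.14% in *3h1* for that window, 0.0394 and 0.0457% without members with fractional counts, and 0.125 and 0.162% as a share of all counts.

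Deviations from the genotype means had an average correlation of -0.102 between same-numbered libraries of the genotypes. The value for differently numbered ones, 0.0505, is nearly fixed by it, because the deviations cancel within each genotype. Whether the numbers pair the samples cannot be told from these values. With the replicate number as a block, 13 of 117 tested members were higher, against 2.26% of all tested genes. There 0 passed the adjustment (AT3G33091 had 0.147) and the median of protein-coding members was -0.018. Of the 48 named members tested, 35 kept 1 sign in all 16 alternatives that tested them.

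With medians of 13.6 to 16.1 counts per tested member in the wt libraries, small differences were not detectable, and 336 members could not be tested.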
